A study of Mus musculus with 4 samples.

Results

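Serpins are a superfamily of proteins with a shared fold and an exposed reactive loop. In the inhibitory members a target protease cuts the loop, the loop inserts into the body of the serpin, and the protease is trapped. Hepatocytes secrete many of the plasma serpins, among them antitrypsin, antithrombin and C1 inhibitor. Some members inhibit no protease and serve instead as hormone carriers or as a chaperone. Letters after the word serpin give the clade, a branch of the family tree.

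The members described here were all array probes that were not controls and whose gene name began with Serpin, a clade letter from a to i and a digit. They were 79 probes on 88 spots for 62 gene names, out of 39429 probes on 43020 spots. Clade A gave 25 genes, clade B 27, clades E, F and I 2 each, and clades C, D, G and H 1 each. A filter on dim spots, which asked for signal well above background in 3 or more of the 4 channels of a treatment, together with a filter on spots marked by the scanner software, left 43 probes for 32 genes. These 32 genes were tested, and the other 30 were not.

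The livers came from female C57B/6 mice 8 to 10 weeks old. Every mouse carried a floxed Trib1 allele in homozygous form, the controls included, so the animals differed by virus. Mice labelled AAV_Cre received an adeno-associated virus with Cre recombinase, which cuts out sequence between loxP sites, and mice labelled AAV_Null, which the study calls wild type, received AAV_Null in its place. Liver was taken 1 week after injection and after a fast of 4 hours. The promoter that drives Cre is not named in the labels, and neither is the number of animals behind an RNA, so p-values measure the spread between these RNA pairs. Trib1 encodes a pseudokinase that recruits C/EBPα, a liver transcription factor, to a ubiquitin ligase, and the study asked how its loss in liver affects lipid synthesis.

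Each of 4 two-colour arrays of 1 slide carried an RNA of either label. Arrays 1 and 2 had AAV_Cre in the dye Cy5, while arrays 3 and 4 had it in Cy3. All log2 ratios set RNA labelled AAV_Cre over that labelled AAV_Null, fitted with a term for the dye, and adjusted p-values are from limma with Benjamini-Hochberg adjustment over all 16079 genes tested. No spot was saturated. The log2 ratio of Trib1 itself was 0.94 ± 0.08 (SE, n = 4 arrays; adjusted p 0.0209 in limma), so it was higher under the AAV_Cre label. Where the loxP sites lie in the gene is not stated in the labels, and a probe outside the deleted sequence checks nothing. Directions below are therefore those of the labels. Cebpa, which encodes C/EBPα, was lower, with -0.59 ± 0.06 (SE, n = 4 arrays; adjusted p 0.0298 in limma). The defining hepatocyte markers were present, with a mean normalised log2 intensity over 10 of 10 markers between 16.33 and 16.96 in RNA labelled AAV_Cre and between 16.76 and 16.98 in RNA labelled AAV_Null. Their median log2 ratio was -0.22, with 8 of 10 below 0, and Trf, transferrin, was the 1 that passed, with -0.52. Of all genes 50.7% lay below 0, and 0.983% passed with a lower ratio. On single arrays Trf had 0.27, 0.33, -1.18 and -1.51, so its sign followed the dye. The median of the 10 was 0.26, 0.23, -0.29 and -0.50 on arrays 1 to 4, above 0 where AAV_Cre was in Cy5 and below 0 where it was in Cy3.

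Array 3 stood apart in neutrophil and macrophage markers and in acute phase genes. The median log2 ratio of 7 neutrophil markers was 0.87 on array 3, against -0.39, -0.29 and -0.58 on arrays 1, 2 and 4. For 10 macrophage markers, of which Cd68 had no unmarked spot on array 1, it was 0.33 on array 3, and -0.32, -0.23 and -0.64 on the other arrays. For 29 acute phase genes that are not serpins it was 0.71 on array 3, and -0.25, -0.13 and -0.36 on the other arrays. Across the 32 serpin genes, the ratios of arrays 1 and 2 correlated at 0.68, those of arrays 1 and 4 at 0.53 and those of arrays 2 and 4 at 0.46. With array 3 the correlations were -0.17, 0.13 and 0.30 for arrays 1, 2 and 4. Over all 16079 genes the highest correlations were within a dye orientation, at 0.67 for arrays 1 and 2 and 0.49 for arrays 3 and 4, while the other pairs had 0.07 to 0.19. Genes are not independent replicates, and these values describe the arrays.

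Serpina7 encodes thyroxine-binding globulin, which carries thyroid hormone in blood, and Serpina6 encodes corticosteroid-binding globulin, which carries glucocorticoids. Serpina7 was the 1 serpin gene that rose, 2.90-fold, on 4 of 4 arrays, while Serpina6 had a ratio near 0 on both of its probes. Serpina7 lies on chromosome X, whereas the other 24 clade A genes lie within 797.1 kb of chromosome 12. The probes are shown because they measure the carriers on this array, and they were picked with the values of the members known. They are the array's 60-base sequences in mm9 coordinates on the minus strand, each within an annotated transcript of its gene. The first is spread over 655 bases of the genome, so it crosses an intron. The second is the dimmer of the 2 probes for Serpina6, while the values and the contrast given for Serpina6 use the brighter one unless the dimmer is named.
Serpina7, chrX:135615848-135616502: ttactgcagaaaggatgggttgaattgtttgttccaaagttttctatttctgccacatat
Serpina6, chr12:104886817-104886876: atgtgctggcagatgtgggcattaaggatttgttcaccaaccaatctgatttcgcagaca

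The Serpina7 probe had normalised log2 intensities of 10.10, 10.61, 10.20 and 10.29 on arrays 1 to 4 in RNA labelled AAV_Cre, and of 9.17, 8.64, 8.63 and 8.60 in RNA labelled AAV_Null. The labels did not overlap, and the smallest difference was on array 1, where AAV_Null was highest. The means were 10.30 ± 0.22 under AAV_Cre and 8.76 ± 0.27 under AAV_Null (SD, n = 4). The log2 ratio was 1.54 ± 0.18 (SE, n = 4 arrays), at an adjusted p of 0.0321 in limma, with 0.93, 1.97, 1.57 and 1.69 on arrays 1 to 4. Of 16079 genes, 18 had a log2 ratio at least as high, Serpina7 included. The probe's ratio was present in both dye orientations, at 1.45 over arrays 1 and 2 and 1.63 over arrays 3 and 4. The authors' deposited log2 values gave 1.66 at an adjusted p of 0.0117 in the same fit. The call did not survive leaving out array 2, 3 or 4, when the adjusted p was 0.0758, 0.0834 or 0.0917 and the log2 ratio 1.28, 1.57 or 1.51, and it was also lost at a smaller background offset, with 1.62 and an adjusted p of 0.0565.

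Serpina6 had normalised log2 intensities of 15.62, 15.67, 15.76 and 15.58 in RNA labelled AAV_Cre on arrays 1 to 4, and of 15.59, 15.85, 15.69 and 15.70 in RNA labelled AAV_Null. These values overlapped, with means of 15.66 ± 0.07 under AAV_Cre and 15.71 ± 0.10 under AAV_Null (SD, n = 4). The log2 ratio was -0.049 ± 0.066 (SE, n = 4 arrays), at an adjusted p of 0.701. The dimmer Serpina6 probe gave -0.054 ± 0.073 (SE, n = 4 arrays), 0.0050 away from the brighter one, although the probes lie in different stretches of the transcript. The sign of the ratio turned under median centring of each array, to 0.057, and without array 2, to 0.0024.

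The Serpina7 ratio exceeded that of Serpina6 on every array, by 0.90, 2.14, 1.50 and 1.80 on arrays 1 to 4. The mean of this difference was 1.59 ± 0.53 (SD, n = 4), with an exact two-sided sign permutation p of 0.125, the smallest that 4 arrays allow. The contrast was chosen with the values of both genes known.

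**Figure D1:**
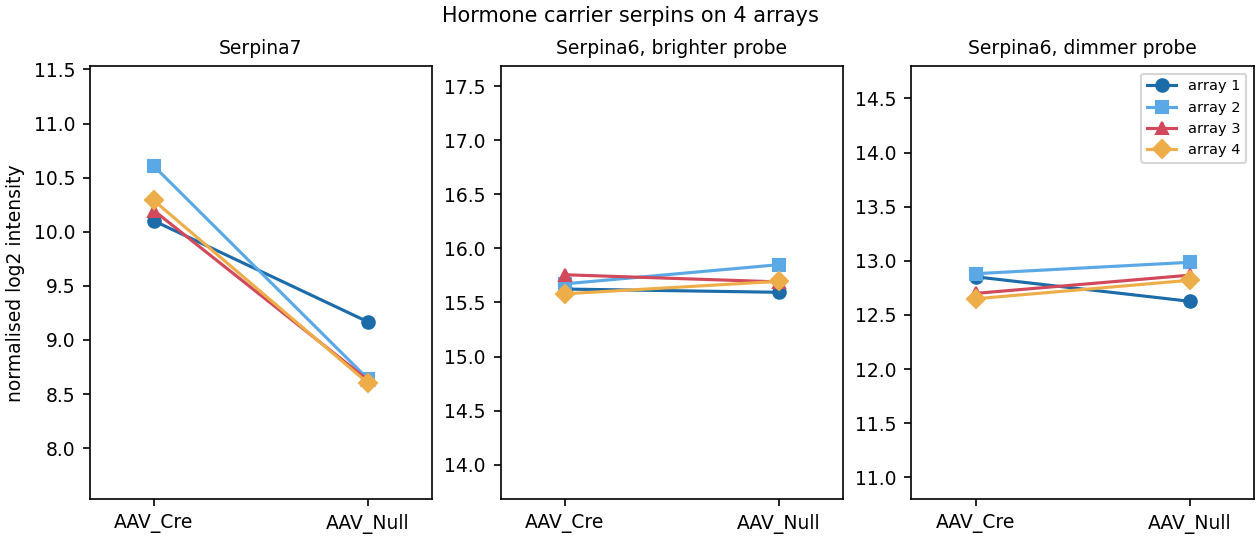
Normalised log2 intensity of the Serpina7 probe and both Serpina6 probes, with RNA labelled AAV_Cre on the left and RNA labelled AAV_Null on the right of each panel. A line joins the 2 channels of 1 array. For Serpina7 the 4 AAV_Cre values, from 10.10 to 10.61, all lie above the AAV_Null values, from 8.60 to 9.17, and for both Serpina6 probes the labels overlap.

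The stretch before the Serpina7 start is shown because the factor that Trib1 acts on, C/EBPα, binds DNA at TTGCNNAA and related sequences. It comes from RefSeq (GRCm38.p6), chrX:139085237-139085486 on the minus strand, the 250 bases that end just before the start, and the gene has 2 such windows in the table. Capitals mark a match to TTGCNNAA read on either strand, 30 to 23 bases before the start, and a TATAAA, 10 to 5 bases before it. The pair was picked for marking after the matches were seen.
Serpina7: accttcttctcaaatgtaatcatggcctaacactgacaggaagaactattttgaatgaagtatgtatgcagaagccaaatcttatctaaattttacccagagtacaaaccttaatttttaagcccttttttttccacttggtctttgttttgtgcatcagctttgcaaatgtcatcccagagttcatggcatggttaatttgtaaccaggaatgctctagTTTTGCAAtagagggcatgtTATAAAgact

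In all, 9 letter patterns were searched on both strands, several of which can overlap. The percentages below count windows, while a serpin gene was counted if any of its windows matched, and Serpina7 has 2. The shares of windows and of genes are therefore in unlike units. TTGCNNAA was found in 9.56% of 32851 windows of this length and in those of 5 of the 22 tested serpin genes that had a window, namely Serpina1d, Serpina1e, Serpina3b, Serpina3f and Serpina7. TATAAA was in 12.4% of all windows and in 4 of the 22 serpin genes. The looser TTNNNNAA, which contains TTGCNNAA, was in 57.7% of all windows and in 18 of 22 serpin genes, and it matched 4 places before Serpina7. TTCNNNGAA, the STAT pattern, was in 7.02% of all windows and in 5 serpin genes, but not in that of Serpina7. The remaining patterns matched no serpin window: TTGCGCAA (0.164% of all windows), the HNF4 pattern CAAAGTCCA (0.384%), a short and a long form of the HNF1 site (0.371% and 0.00913%), and a direct repeat of the nuclear receptor half-site at the spacing thyroid hormone receptor prefers (0.0152%). A match describes letters and not binding, and no binding was measured on these arrays.

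Genes that act beside the carriers were counted from lists of the hormones' handling and response. Of 14 tested genes of thyroid hormone transport, conversion and response, 2 rose, 0 fell and 12 did not pass, with a median of 0.024, while 1.78% of all genes rose and 0.983% fell. Me1, malic enzyme, rose by 1.10 ± 0.09 (SE, n = 4 arrays; adjusted p 0.0214 in limma), and Thrsp, a lipogenic gene that thyroid hormone induces, rose by 0.76 ± 0.08 (SE, n = 4 arrays; adjusted p 0.0259 in limma). The plasma carriers that share thyroxine with thyroxine-binding globulin did not pass, with a log2 ratio of -0.10 for Ttr, transthyretin, and -0.39 for Alb, albumin. On arrays 1 to 4 Ttr had 0.30, 0.43, -0.51 and -0.64, and Alb had 0.39, 0.27, -0.95 and -1.27. The sign of both followed the dye. Dio1, the deiodinase of liver, had 0.12.

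Of 13 tested genes of glucocorticoid conversion and response, 2 rose, 1 fell and 10 did not pass, with a median of 0.092, beside the same 1.78% and 0.983% of all genes. Hsd11b1, which makes active glucocorticoid inside the cell, rose by 0.56 ± 0.07 (SE, n = 4 arrays; adjusted p 0.0346 in limma). Dusp1, a phosphatase induced by glucocorticoid and by stress, rose by 0.93 ± 0.13 (SE, n = 4 arrays; adjusted p 0.0464 in limma). Tsc22d3, a glucocorticoid target that encodes GILZ, fell by 0.48 ± 0.06 (SE, n = 4 arrays; adjusted p 0.0359 in limma). The receptor gene Nr3c1 had -0.15 and did not pass. The direction therefore differed between the members that passed.

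Across the family, 1 of 32 serpin genes passed in limma, against 2.77% of all genes. That gene was higher, as 1.78% of all genes were, and 0 serpins were lower, against 0.983% of all genes. Of the 11 serpin genes with a second tested probe, 0 of the dimmer probes passed over all probes, of which 2.38% did. At an unadjusted p under 0.05 in limma 9 serpin genes differed, against 22.6% of all genes, with 2 higher and 7 lower, against 11.6% and 10.99%. The same sign on 4 of 4 arrays was seen for 8 serpin genes, against 23.05% of all genes, with 1 above 0 and 7 below, against 11.8% and 11.2%. The median log2 ratio of the 32 genes was -0.028, with 15 above 0 and 17 below, and that of all genes was -0.0025, with 49.3% above 0 and 50.7% below. Under median centring the serpin median was 0.021. The 7 genes with an unadjusted p under 0.05 and a ratio below 0 were Serpina9, Serpina10, Serpina11, Serpinc1, Serpind1, Serpinf1 and Serpinf2. Serpina9 entered through AAV_Null alone, since it was well above background in 0 of 4 channels labelled AAV_Cre and in 4 of 4 labelled AAV_Null. Several of the 7 passed the adjusted threshold under other settings: 7 in a fit of separate channels, 5 with a trended and robust prior, 4 without background correction and 4 in the authors' deposited log2 values, settings that also called more of all genes.

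**Figure D2:**
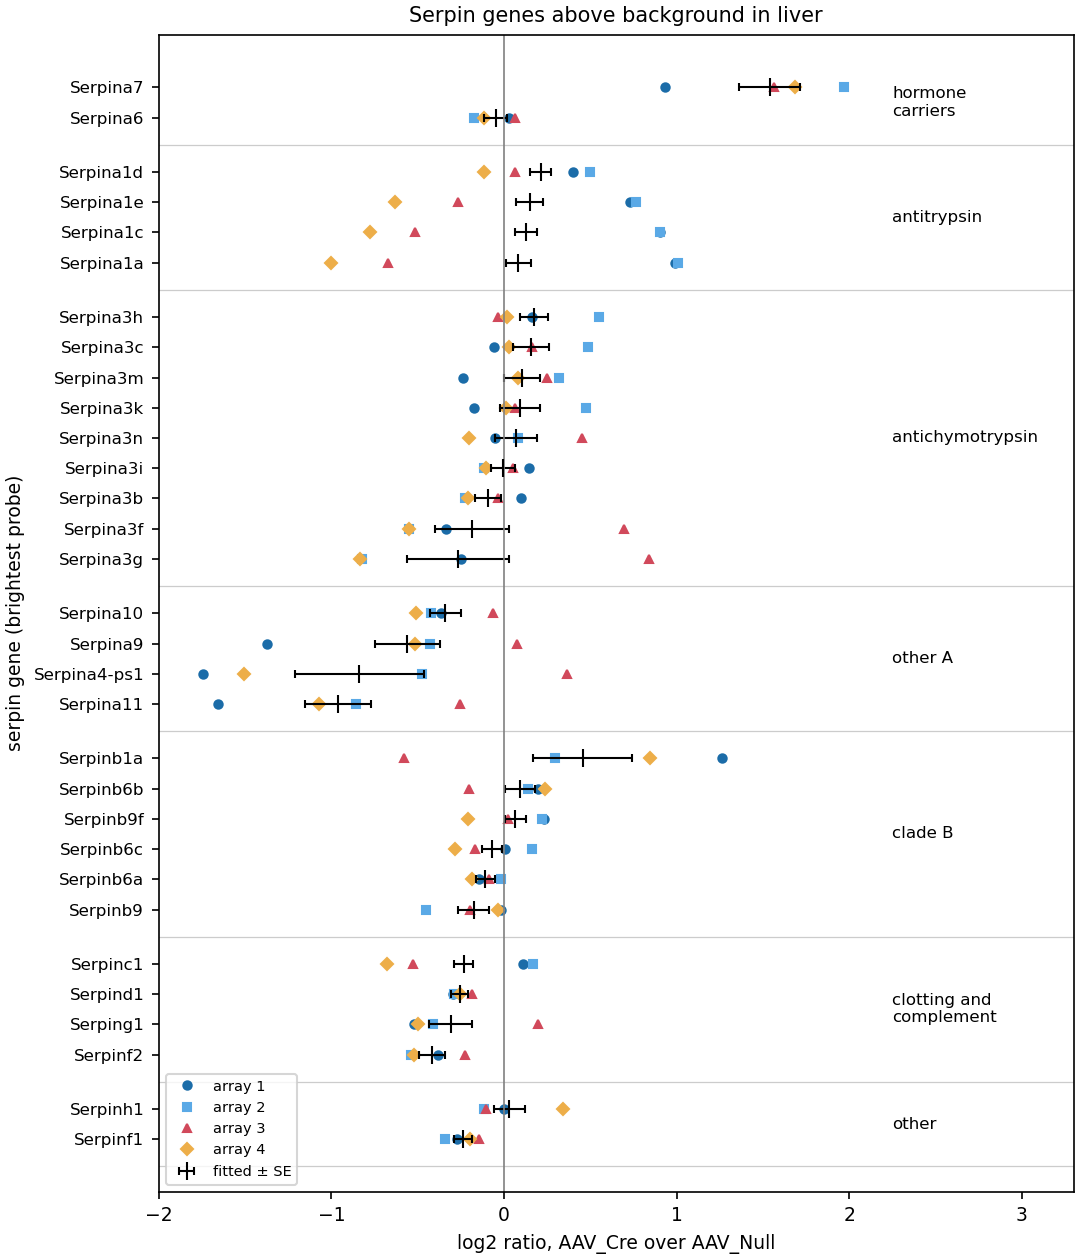
Log2 ratio of AAV_Cre over AAV_Null, by label, for 31 of the 32 tested serpin genes by role, from the brightest probe of each. Coloured points are the 4 arrays, and the black bar is the fitted value with its SE. Serpina7 stands alone at 1.54, and the other genes lie between -0.96 and 0.45. The Serpina9 value is a fitted ratio like the others, but its signal was not well above background under AAV_Cre.

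Antitrypsin, the inhibitor of neutrophil elastase, is encoded in the mouse by several near-identical genes. The ratios of the 4 tested genes were small, at 0.21 for Serpina1d, 0.15 for Serpina1e, 0.13 for Serpina1c and 0.08 for Serpina1a, and none passed. Without array 3 the ratio was 0.0002 for Serpina1a, 0.06 for Serpina1c, 0.06 for Serpina1e and 0.17 for Serpina1d. The arrays did not resolve these genes well. The brighter probes of Serpina1a and Serpina1c shared 50 bases over their overlap, those of Serpina1c and Serpina1e 49, and those of Serpina1a and Serpina1e 39. All 3 held the same run of 29 bases on chromosome 12, shown because it is where these probes cannot tell their genes apart.
Serpina1a, Serpina1c and Serpina1e: gtcatccttccttctgaattgggttcctt

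By the array's own annotation the Serpina1c probe also fits Serpina1a and Serpina1b, and the brighter Serpina1d probe also fits Serpina1b. The same 3 probes had the largest dye effects among the members, with Cy5 over Cy3 at 0.92 for Serpina1a, 0.77 for Serpina1c and 0.60 for Serpina1e on the log2 scale (adjusted p over probes 0.0295, 0.0295 and 0.0491 in limma). They were the 3 member probes with a dye effect past the threshold, which 1.62% of all probes had. On arrays 1 and 2 the Serpina1a ratio was 0.99 and 1.01, and on arrays 3 and 4 it was -0.67 and -1.0, so its sign followed the dye.

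Other probes of the same genes carried a smaller dye effect. The dimmer Serpina1a probe had 0.33, 0.40, 0.00 and -0.08 on arrays 1 to 4 and a fitted ratio of 0.16 ± 0.05 (SE, n = 4 arrays). The dimmer Serpina1e probe had 0.14, 0.25, -0.06 and -0.12 and a fitted ratio of 0.05 ± 0.05 (SE, n = 4 arrays). The dimmer Serpina1d probe, annotated to Serpina1d alone, was the 1 antitrypsin probe above 0 on 4 of 4 arrays, with 0.17, 0.12, 0.36 and 0.33 and a fitted ratio of 0.25 ± 0.05 (SE, n = 4 arrays; adjusted p over probes 0.0875 in limma). Both Serpina1d probes and the dimmer Serpina1e probe are shown, the last for its smaller dye effect, and all of them lack that shared run. They were picked after the values were seen. The coordinates are mm9 on the minus strand, and the dimmer Serpina1d probe is spread over 1505 bases, across an intron.
Serpina1d, dimmer, chr12:105004164-105005668: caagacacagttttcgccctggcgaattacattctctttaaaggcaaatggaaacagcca
Serpina1d, brighter, chr12:105002930-105002989: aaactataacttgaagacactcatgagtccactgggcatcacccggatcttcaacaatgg
Serpina1e, dimmer, chr12:105185290-105185349: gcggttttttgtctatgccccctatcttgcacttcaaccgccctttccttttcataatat

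**Figure D3:**
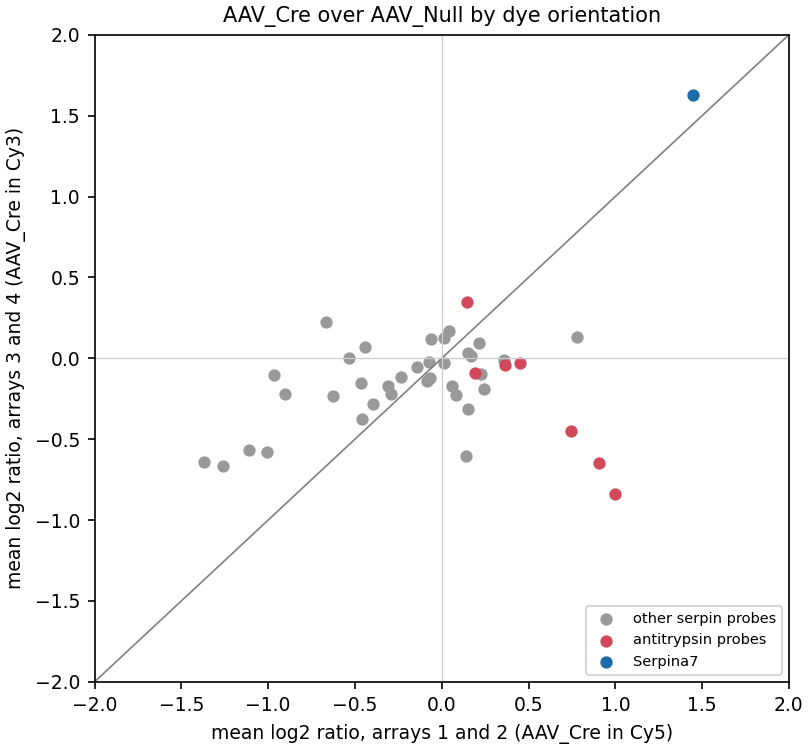
Mean log2 ratio of AAV_Cre over AAV_Null, by label, on arrays 1 and 2 (AAV_Cre in Cy5, horizontal) and on arrays 3 and 4 (AAV_Cre in Cy3, vertical) for the 43 tested serpin probes. On the diagonal both orientations give the same ratio. Serpina7 lies near it at 1.45 and 1.63, while 3 antitrypsin probes lie far below it, down to 1.0 and -0.84 for Serpina1a.

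The antichymotrypsin group is a second expanded set in the mouse, related to the human inhibitor of cathepsin G and chymotrypsin. The 9 tested genes lay between -0.27 for Serpina3g and 0.17 for Serpina3h, with a median of 0.07, and none passed. Serpina3c, Serpina3m, Serpina3k and Serpina3n had 0.15, 0.10, 0.09 and 0.07, and Serpina3i and Serpina3b had -0.0069 and -0.09. Serpina3n, an acute phase gene, had -0.05, 0.08, 0.45 and -0.20 on arrays 1 to 4, and without array 3 its ratio turned to -0.09.

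Serpina3f and Serpina3g, which are known from lymphoid and myeloid cells, varied most with array 3 within the antichymotrypsin group. Serpina3g had normalised log2 intensities of 10.53, 10.08, 11.68 and 10.12 under AAV_Cre, and of 10.78, 10.91, 10.83 and 10.95 under AAV_Null. The single AAV_Cre RNA of array 3 lay above all other values, and the other AAV_Cre RNAs lay below all of AAV_Null. Its ratio was -0.27 over 4 arrays and -0.69 without array 3, and the ratio of Serpina3f was -0.19 over 4 arrays and -0.50 without it. Neutrophil and macrophage markers moved the same way on array 3, and over 7 neutrophil markers the mean log2 intensity ranged from 8.77 to 9.63 under AAV_Cre and from 8.86 to 9.77 under AAV_Null. All but Ngp of the 8 neutrophil markers passed the filter, and their part in these ratios was not tested. In whole liver, fewer cells of a type and less RNA per cell cannot be told apart. Probes of this group also overlap in sequence, with 51 shared bases between Serpina3h and Serpina3i and 36 between Serpina3b and Serpina3f, and the brighter Serpina3f probe is also annotated to Serpina3h.

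**Figure D4:**
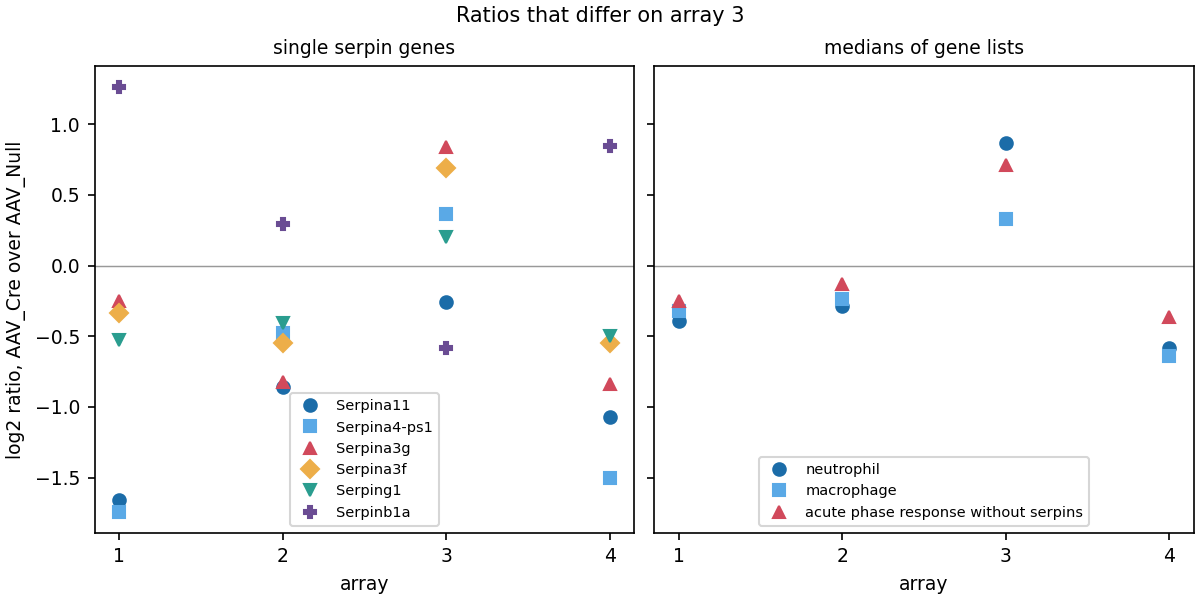
Log2 ratio of AAV_Cre over AAV_Null, by label, on each array for 6 serpin genes (left) and for the median of neutrophil markers, macrophage markers and acute phase genes (right). The 6 genes were chosen after their values were seen. On array 3, 5 of them are at their highest and Serpinb1a is at its lowest, at -0.58, and the list medians are above 0 on array 3, at 0.33 to 0.87, and below 0 on the other arrays.

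The remaining tested clade A genes were all below 0 and none passed. Serpina11 had the lowest ratio of the family, -0.96 ± 0.19 (SE, n = 4 arrays), at an adjusted p of 0.0824 in limma. Its normalised log2 intensities were 13.04, 13.19, 13.56 and 12.75 under AAV_Cre and 14.69, 14.05, 13.82 and 13.82 under AAV_Null. The labels did not overlap, and the channels were closest on array 3, with ratios of -1.66, -0.86, -0.26 and -1.07 on arrays 1 to 4. A second Serpina11 probe gave -1.004 ± 0.198 (SE, n = 4 arrays), but it shares 53 bases with the first and is no independent measure. Serpina11 passed in 4 of 14 other settings that kept all arrays, with an adjusted p between 0.00384 and 0.110 over the 14, and without array 3 its ratio was -1.17. It is given in full because of its rank, after its values were seen.

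Serpina4-ps1, annotated as a pseudogene, had -1.74, -0.47, 0.37 and -1.50 on arrays 1 to 4, with a fitted ratio of -0.84 ± 0.37 (SE, n = 4 arrays). Its normalised log2 intensities were 11.83, 9.85, 11.12 and 9.74 under AAV_Cre and 13.57, 10.32, 10.75 and 11.24 under AAV_Null. The labels overlapped, and the AAV_Null RNA of array 1 was far above the rest. Without array 3 the ratio was -1.31. Serpina9, known in human from germinal centre B cells, was not well above background in any channel labelled AAV_Cre and passed the filter through AAV_Null alone. The fitted log2 ratio of Serpina9 was -0.56 ± 0.19 (SE, n = 4 arrays), for which limma gave an adjusted p of 0.184. On array 3 the ratio was above 0, at 0.08. Normalised log2 intensities lay between 6.75 and 7.07 under AAV_Cre and between 6.93 and 8.44 under AAV_Null, and the labels overlapped. A filter met through AAV_Null alone favours a ratio below 0, so no minimum fold is given and the sign is not read further. Serpina11, Serpina9 and Serpina4-ps1 are neighbours within 106.7 kb of chromosome 12, chr12:105218462-105325127 (mm9), with the untested Serpina12 between Serpina9 and Serpina4-ps1. Serpina11 and Serpina4-ps1 had the lowest fitted ratios of the family, but neither passed and Serpina4-ps1 was above 0 on array 3. Serpina9 came next, but its rank is not read, since its filter favoured a ratio below 0. The stretch was set out after the values were seen, so no shared change of these neighbours is drawn from it. Serpina10, the inhibitor of factor Xa that works with protein Z, lies at the low-coordinate end of the cluster. Its brighter probe had -0.34 ± 0.09 (SE, n = 4 arrays), below 0 on 4 of 4 arrays. The dimmer Serpina10 probe had -0.43 and was above 0 on array 3, at 0.11.

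Serpins that restrain clotting, fibrinolysis and complement gave 0 of the 4 tested genes described here past the threshold. At an unadjusted p under 0.05 in limma 3 of the 4 differed, each with a ratio below 0, as 10.99% of all genes had. Serpina10, the inhibitor of factor Xa with -0.34, was counted with the remaining clade A genes and is not among the 4. The median of the 4 was -0.28, against -0.0025 for all genes. On arrays 1 to 4 the median of the 4 serpins was -0.34, -0.35, -0.21 and -0.51. The hepatocyte markers had a median of -0.22, with 0.26, 0.23, -0.29 and -0.50 on arrays 1 to 4, and their part in these ratios was not tested. Serpinf2, α2-antiplasmin, had normalised log2 intensities of 16.28, 16.03, 16.35 and 16.18 under AAV_Cre and of 16.66, 16.57, 16.57 and 16.70 under AAV_Null. The labels did not overlap, with means of 16.21 ± 0.14 under AAV_Cre and 16.63 ± 0.06 under AAV_Null (SD, n = 4). Its log2 ratio was -0.42 ± 0.07 (SE, n = 4 arrays), at an adjusted p of 0.0668, and this ranged from 0.00264 to 0.136 over the other settings that kept all arrays.

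Serpind1, heparin cofactor II, which inhibits thrombin, had 16.10, 15.98, 16.13 and 16.11 under AAV_Cre and 16.39, 16.27, 16.32 and 16.37 under AAV_Null. The difference was small and even, and again the labels did not overlap. The log2 ratio was -0.26 ± 0.05 (SE, n = 4 arrays), at an adjusted p of 0.0791, with 0.00545 to 0.413 over the other settings that kept all arrays, and the ratio was -0.14 under median centring. Among the 43 tested probes, 1 lay wholly above under AAV_Cre (Serpina7) and 5 wholly below, namely both Serpina11 probes, Serpinf2, Serpind1 and the brighter Serpinf1 probe, against 3.05% and 2.47% of all 20335 tested probes.

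Serpinc1, antithrombin, which inhibits thrombin and factor Xa, had ratios of 0.11, 0.17, -0.53 and -0.68 on arrays 1 to 4, positive where AAV_Cre was in Cy5 and negative where it was in Cy3. The fitted ratio was -0.23 ± 0.055 (SE, n = 4 arrays), at an adjusted p of 0.107, beside a dye effect of 0.37 that did not pass (adjusted p over probes 0.0596 in limma). Under median centring the ratio was -0.08, at an adjusted p of 0.646. Serping1, C1 inhibitor, which blocks the first complement proteases and plasma kallikrein, had -0.52, -0.41, 0.20 and -0.50 on arrays 1 to 4. Its fitted ratio was -0.31 ± 0.13 (SE, n = 4 arrays), at an adjusted p of 0.243, with -0.48 without array 3 and -0.13 without array 4. The dimmer Serping1 probe followed, with -1.09, -0.85, 0.42 and -0.62.

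Proteases that serpins inhibit, whatever the clade, were counted from a list of 25, of which 18 were tested. Here 1 rose, 1 fell and 16 did not pass, and 16 of the 18 had a ratio below 0, with a median of -0.15, while 1.78% of all genes rose, 0.983% fell and 50.7% lay below 0. On arrays 1 to 4 the median of the 18 proteases was -0.22, -0.24, 0.0005 and -0.19. The median of the hepatocyte markers was 0.26, 0.23, -0.29 and -0.50. Of these markers 8 of 10 lay below 0 in the fit, and their part in the proteases' ratios was not tested. F11, coagulation factor XI, rose by 0.61 ± 0.07 (SE, n = 4 arrays; adjusted p 0.0318 in limma). Proc, protein C, fell by 0.43 ± 0.05 (SE, n = 4 arrays; adjusted p 0.0360 in limma). The thrombin gene F2 had 0.0096 and Plg, plasminogen, had -0.13. On arrays 1 to 4 F2 had 0.38, 0.42, -0.36 and -0.39, so its sign followed the dye. Of 12 genes listed around plasminogen activation, 1 rose and 11 did not pass, against 1.78% of all genes higher. The 1 that rose was S100a10, which helps plasminogen bind to the cell surface, by 0.46 ± 0.06 (SE, n = 4 arrays; adjusted p 0.0369 in limma).

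Clade B serpins lack a classical signal peptide and act mainly inside cells. Of their 27 genes 6 were tested, all on chromosome 13, and none of the 12 on chromosome 1 was. None of the 6 passed, and their median was -0.0031. Serpinb1a, an inhibitor of neutrophil serine proteases, had the largest ratio of the clade, 0.45 ± 0.29 (SE, n = 4 arrays), at an adjusted p of 0.409. Its normalised log2 intensities were 10.22, 10.89, 10.13 and 10.29 under AAV_Cre and 8.96, 10.60, 10.71 and 9.45 under AAV_Null. They overlapped, since the spread lay mostly among the AAV_Null RNAs, and the ratio was below 0 on array 3 alone. Without array 3 it was 0.81, opposite in direction to the neutrophil markers on the same arrays, and it was 0.21 without array 1 and 0.099 without array 4.

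Serpinb6a, which inhibits cathepsin G, had the smallest p of clade B. It had 12.44, 12.23, 12.54 and 12.52 under AAV_Cre and 12.59, 12.25, 12.63 and 12.70 under AAV_Null, with a ratio of -0.11 ± 0.05 (SE, n = 4 arrays) at an adjusted p of 0.319. The values overlapped between labels although AAV_Cre was the lower on each array. Serpinb9, the granzyme B inhibitor, had -0.18, Serpinb6c -0.07, Serpinb9f 0.07 and Serpinb6b 0.09. The Serpinb6a probe and the brighter Serpinb6c probe share 55 bases, and the Serpinb9f probe is also annotated to Serpinb9e, so these values may mix genes.

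Serpinf1 and Serpinh1 inhibit no protease. Serpinf1, pigment epithelium-derived factor, had 15.17, 15.39, 15.37 and 15.33 under AAV_Cre and 15.44, 15.74, 15.51 and 15.53 under AAV_Null. Its brighter probe did not overlap between labels, with a ratio of -0.24 ± 0.05 (SE, n = 4 arrays; adjusted p 0.0900 in limma), while its dimmer probe overlapped and gave -0.10. Serpinh1, the chaperone HSP47 that holds procollagen in the endoplasmic reticulum, had a ratio of 0.03 ± 0.09 (SE, n = 4 arrays), at an adjusted p of 0.877. It was between -0.12 and 0.34 on single arrays, and between -0.08 and 0.14 when 1 array was left out.

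Of 16 tested genes of collagen and its folding, 1 rose and 15 did not pass, with a median of 0.03, against 1.78% of all genes higher. Col3a1, a fibrillar collagen chain made by stellate cells, rose by 0.47 ± 0.06 (SE, n = 4 arrays; adjusted p 0.0439 in limma). Among 8 tested stellate cell markers, of which Col3a1 is 1, 7 lay above 0, with 4 at an unadjusted p under 0.05 in limma. Of all genes 49.3% lay above 0 and 11.6% were higher at that p. The median was 0.33 for the markers and -0.0025 for all genes. The mean log2 intensity of these markers ranged from 10.62 to 10.96 under AAV_Cre and from 10.18 to 10.93 under AAV_Null. The markers' part in the Col3a1 ratio was not tested. Of 16 tested genes for folding and disposal of secreted proteins in the endoplasmic reticulum, 0 passed in limma, against 2.77% of all genes. At an unadjusted p under 0.05 in limma 2 were higher and 2 lower, against 11.6% and 10.99% of all genes. The smallest p among the 16 was that of Edem1, which sends misfolded glycoproteins to degradation, with 0.47 ± 0.08 (SE, n = 4 arrays). Of the 29 acute phase genes 0 passed in limma, beside the same 2.77%. At an unadjusted p under 0.05 in limma 3 of the 29 were higher and 3 lower, beside the same 11.6% and 10.99%. The smallest p of the 29 was that of Itih3, with -1.02 ± 0.27 (SE, n = 4 arrays).

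Of the 79 probes 36 were not tested. For 27 of them no channel was well above background, for 8 between 1 and 5 of the 8 channels were, and 1 was in all 8 channels but lost its spots on 2 arrays to outlier marks. That probe measures Serpinb8, and with the marked spots kept it had 0.37, 0.43, -0.41 and -0.51 on arrays 1 to 4 and a fitted ratio of -0.03. The genes with no tested probe included Serpina12 (vaspin), Serpina5 (protein C inhibitor), Serpine2 (protease nexin-1) and Serpini1 (neuroserpin). For these the arrays show that the signal was not well above background in enough channels, and no fold is given.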

How the data were processed

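Per the file headers, Agilent's Feature Extraction software, version 11.5.1.1, gave the spot intensity of either dye and its local background. The scanner's log10 ratio of Cy5 over Cy3 was made from its processed intensities, per the file headers. The authors also deposited a table of log2 values, with limma named in the submitters' processing notes. Their slopes on the scanner's log10 ratio were 3.34, 3.33, -3.29 and -3.39, near the 3.32 of a log2 scale, with the sign of AAV_Cre over AAV_Null on each array. Its column medians were -0.022, -0.038, 0.035 and 0.041, and its normalisation and centring are not given in the sources used here.

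Here mean spot intensities were corrected by normexp (offset 50) and loess in limma 3.58.1 (R 4.3.3), with spots marked as outliers left out. Spots of a probe were averaged. A probe was kept if well above background in 3 channels of a treatment and unmarked on 3 arrays. The log2 ratio was fitted with dye and treatment terms by lmFit and eBayes, with 2 residual and 2.67 prior degrees of freedom. The brightest probe stood for a gene, over 16079 genes, at a threshold of 0.05. Levels by channel are log2 intensities after Aquantile scaling between arrays. Between 51.0% and 58.7% of spots were well above background in a channel, and the number of arrays limits the precision, with a median SE of 0.064. Symbols were updated through a RefSeq table (27508 probes by accession, 404 by synonym). The fit was run on data simulated with independent noise. Such data lack a pattern like that of array 3, so the run does not measure false calls on these arrays. Separate channels used statmod 1.5.0, and figures matplotlib 3.10.9.

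The members, the gene lists and the alternatives were chosen with earlier results of these data known. Per-sample values were given for Serpina7, Serpina6, every serpin that passed, and in each clade the tested gene of smallest p and of largest ratio, for lists up to 3 genes that passed or the one of smallest p. Others were chosen after their values were seen, and 1 gene that the rule named is not reported here.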

Additional observations from a re-analysis of the deposited data

Results flagged for a closer look

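Serping1, which encodes C1 inhibitor, had a log2 ratio of 0.20 on array 3, against -0.52, -0.41 and -0.50 on arrays 1, 2 and 4. The gap between array 3 and the nearest other array was 0.842 of the range, above Dixon's critical value for 4 samples. Of 40 sets of 4 ratios tested in this way, 1 was so marked, and chance alone marks about 1 in 20, here 2.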

How the results depend on the processing

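There were 14 alternatives that kept all 4 arrays (other dye, channel, background, normalisation, filter, probe, variance, weighting and adjustment choices, and the deposited values), and each array was left out in turn. The Serpina7 ratio was above 0 in all of them, between 1.54 and 1.79 with 4 arrays and between 1.28 and 1.80 with 3. Its call was lost at a normexp offset of 16 (1.62, adjusted p 0.0565) and without array 2, 3 or 4, when at most 33 genes in all were higher.

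The number of serpins called higher was 2 in the separate-channel fit, with median centring and with a trended, robust prior, 0 at offset 16, and 0 to 1 with an array left out. The number called lower was 7 in the separate-channel fit, 5 with the trended, robust prior, 4 without background correction, 4 in the deposited values, 1 with median centring and 0 with an array left out. The cause was not tested.

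All genes called numbered 287 higher and 158 lower. They were 1269 and 1220 in the separate-channel fit, 813 and 659 with the trended, robust prior, 824 and 579 without background correction, 827 and 555 in the deposited values, 461 and 269 from processed signals, 528 and 228 with median centring, 183 and 87 without a dye effect, 200 and 97 without the dim-probe filter, and 141 and 61 at offset 16. Without array 1, 2, 3 or 4 they were 16 and 2, 0 and 0, 23 and 15, and 33 and 11.

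The Serpina6 ratio turned to 0.057 with median centring and ranged from -0.10 to 0.0024 with an array left out. Serpinh1 ranged from -0.083 to 0.14 with an array left out. Each ratio already pairs the 2 RNAs of an array. No paired analysis was possible beyond this because the arrays of the 2 dye orientations share no replicate numbers. With 2 residual degrees of freedom, small changes could not be told from array noise.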
